A study of Mus musculus with 8 samples.

Results

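Cdkn1a, which encodes the p21 inhibitor of cyclin-dependent kinases, was followed together with other cell cycle inhibitors and genes of the p53 pathway in mouse hippocampus. The 9 genes were Cdkn1a, Cdkn1b, Cdkn1c, Cdkn2c, Trp53, Mdm2, Ccng1, Gadd45a and Bax, and they were chosen by gene symbol around Cdkn1a, which had itself been picked for its higher value after clothianidin at 3 weeks. A named transcript cluster, the unit for which the array gives a value, was found for 7 of them, each on 1 cluster, among 22206 clusters. Trp53 and Bax were not analysed here. The 3-week exposure values are therefore given for all 7 genes as a description without a test. The values at 10 weeks and the comparison of ages, which did not pick Cdkn1a, were tested.

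RNA came from the hippocampus of male mice, with 2 whole-transcript arrays in each of 4 groups. The groups were vehicle and clothianidin (CLO in the labels) at 3 weeks, and vehicle and clothianidin at 10 weeks. Clothianidin belongs to the neonicotinoids, insecticides that bind nicotinic receptors. It was given by mouth to the dams, not to the pups, at 65 mg/kg/day on postnatal days 1 to 4, a dose that the labels give as one without observed adverse effects, and the control dams received vehicle. The labels give no strain, and do not say that the 2 arrays of a group came from separate animals or litters, so the p-values cover no more than the spread among these arrays, which may be technical. Values are log2 intensities, and a difference of 1 is a 2-fold difference.

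Cyclin-dependent kinases drive a cell through its division cycle, and the Cip/Kip proteins encoded by Cdkn1a, Cdkn1b and Cdkn1c hold them in check, as does the INK4 protein encoded by Cdkn2c, which blocks the kinases of early G1. The tumour suppressor p53 (Trp53) is stabilised by DNA damage and other stress and switches on Cdkn1a together with Mdm2, Ccng1, Gadd45a and Bax. Mdm2 in turn marks p53 for degradation, which closes a feedback loop. Cdkn1a also answers to signals that do not pass through p53, among them glucocorticoids and FoxO factors, and in the hippocampus cell cycle inhibitors restrain the neural stem cells of the dentate gyrus.

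The sequence before the Cdkn1a start sites is shown because Cdkn1a is the gene the question turns on and because p53 acts there. RefSeq promoter windows of GRCm38.p6 (300 bases, of which 250 lie before the start) were present for 8 of the 9 genes and are missing for Cdkn1c. The p53 half-site consensus, a palindrome of 10 bases that reads alike on both strands, was matched in 6 of the 8 genes with a window (Cdkn1a, Mdm2, Ccng1, Gadd45a, Bax and Trp53), against 9.55% of all 27025 genes with a window. The genes were chosen to include p53 targets, so nothing is read from this count. The first Cdkn1a window holds 2 half-site matches. A pair of half-sites with no spacer and at most 1 mismatch was looked for after the first matches had been seen. It occurred in 0.0883% of all windows. Among them were the first window of Cdkn1a (bases -51 to -32 from the first start) and that of Ccng1 (-195 to -176). The 250 bases before the first Cdkn1a start, at chr17:29090729-29090978 on the plus strand, are given with the p53 matches in capitals:
Cdkn1a, first start: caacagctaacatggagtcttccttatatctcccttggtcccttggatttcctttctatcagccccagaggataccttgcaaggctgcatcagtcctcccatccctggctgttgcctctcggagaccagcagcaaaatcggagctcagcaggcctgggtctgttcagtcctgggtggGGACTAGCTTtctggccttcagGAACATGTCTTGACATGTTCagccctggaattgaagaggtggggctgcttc
The 250 bases before the second start, at chr17:29093519-29093768 on the plus strand, hold no p53 half-site. They carry 2 GC boxes (GGGCGG, searched on both strands) and 1 TATAA (searched on both strands), in capitals. A GC box occurred in 32.7% and TATAA in 22.8% of all stretches of that length, and the stretch before the first start also holds 1 TATAA match, left in lower case there:
Cdkn1a, second start: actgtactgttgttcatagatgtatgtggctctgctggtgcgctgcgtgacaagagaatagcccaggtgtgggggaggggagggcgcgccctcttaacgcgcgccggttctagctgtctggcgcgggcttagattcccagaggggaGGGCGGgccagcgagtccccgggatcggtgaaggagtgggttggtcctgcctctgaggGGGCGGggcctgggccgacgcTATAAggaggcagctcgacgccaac
For the other p53 target genes with a value here, the match is given with 10 bases on either side, all on the minus strand:
Ccng1, chr11:40755452-40755491: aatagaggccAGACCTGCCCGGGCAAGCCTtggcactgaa
Mdm2, chr10:117710925-117710954: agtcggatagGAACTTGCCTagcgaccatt
Gadd45a, chr6:67037428-67037457: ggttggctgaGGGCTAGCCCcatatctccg
A match is a run of letters in the window and was not tested as a binding site in these samples. Which of the 2 Cdkn1a starts is used in these samples was not tested.

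The arrays had medians between 5.73 and 5.86. Excitatory neuron markers were bright in every group, with Camk2a between 19.15 and 19.66. Ttr, the main product of the choroid plexus, stood above 18 in 3 arrays (the second 3-week vehicle array and the first clothianidin array of each age), while the other 5 read 5.24 to 7.37. Values were least spread in the first 3-week vehicle array (standard deviation 3.14, and 3.26 to 3.39 elsewhere). Some results are given with and without these arrays. Without the 3 arrays with a high Ttr each 3-week group keeps 1 array, and so does the 10-week clothianidin group. Exposure differences without them therefore rest on single arrays.

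Cdkn1a was higher after neonatal clothianidin at 3 weeks. Of the other 6 measured members 0 were higher without overlap, beside 17.2% of all clusters. Without the arrays with a high Ttr 1 array per group remains, where any difference is without overlap. The differences there were 0.18 for Cdkn1b, 0.46 for Cdkn2c, 0 for Ccng1, -0.27 for Cdkn1c, -0.33 for Gadd45a and -0.41 for Mdm2. Cdkn1a read 5.64 and 5.66 under vehicle, and 6.96 and 7.36 under clothianidin at 3 weeks. Both clothianidin arrays lay above both vehicle arrays, with a gap of 1.3 between the nearest. The difference of 1.51 ± 0.29 (SE) is 2.85-fold, and it is the value for which the gene was picked. A difference at least as high was found in 16 clusters, 0.0721% of all, Cdkn1a included. Each group held 1 array with Ttr above 18 and 1 without. Between the 2 arrays without a high Ttr, 1 per group, the Cdkn1a difference was 1.72. The vehicle array of that pair is the one with the least spread. Leaving out each array in turn gave 1.31 to 1.71.

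**Figure D1:**
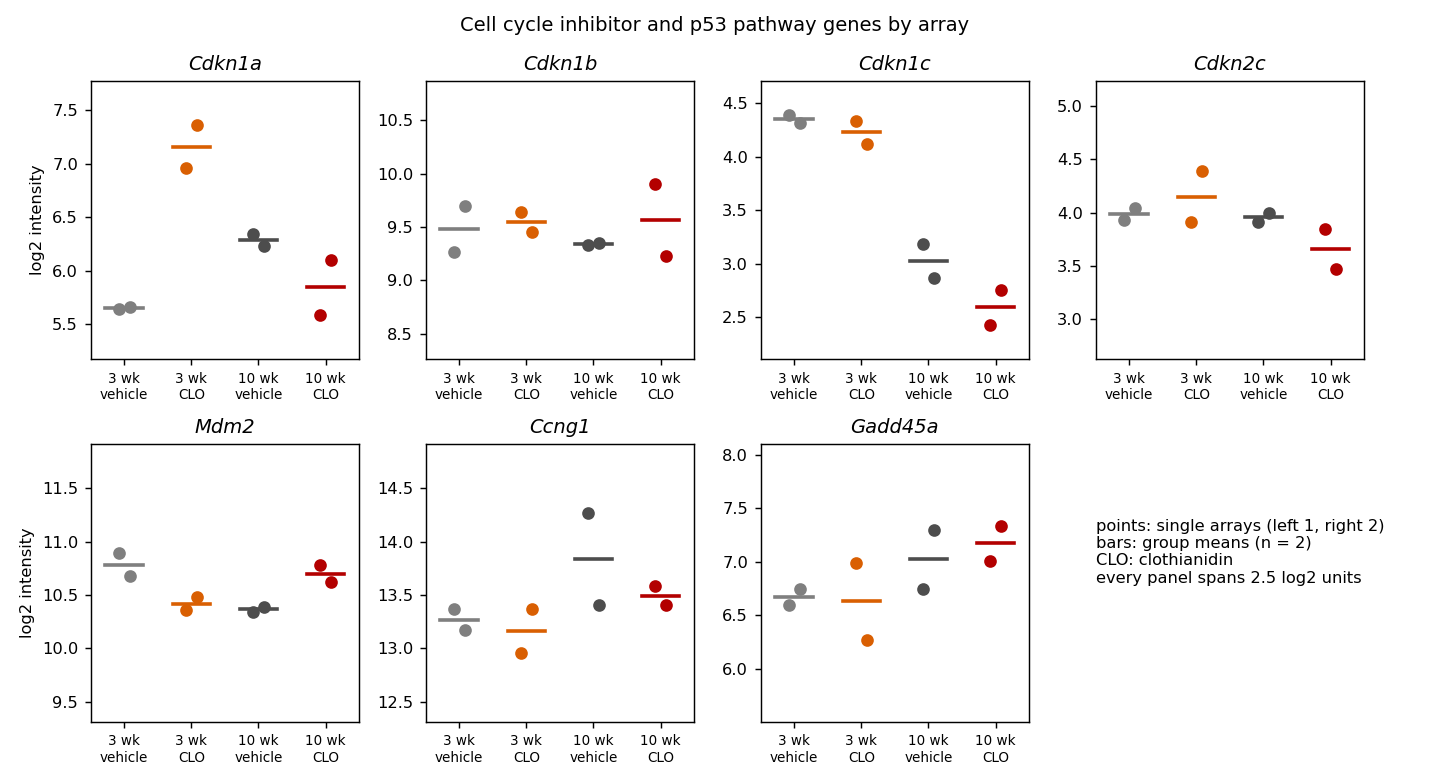
Log2 intensity (y axis) of the 7 measured genes in the 4 groups (x axis), with points for single arrays and bars for group means of 2 arrays. Cdkn1a stands apart in the 3-week clothianidin arrays (6.96 and 7.36 against 5.59 to 6.34 in the other 6), and Cdkn1c is lower in all 10-week arrays (2.43 to 3.19) than in all 3-week arrays (4.12 to 4.39).

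The direct p53 target Mdm2, encoding the ubiquitin ligase that turns p53 over, went the other way from Cdkn1a in these values. Mdm2 read 10.89 and 10.68 under vehicle, and 10.36 and 10.48 under clothianidin at 3 weeks. Both clothianidin arrays were lower, with a difference of -0.365 ± 0.259 (SE), and -0.26 on leaving out the first 3-week vehicle array. Ccng1, which encodes cyclin G1, read 13.37 and 13.17 under vehicle, and 12.96 and 13.37 under clothianidin, and the groups overlapped (difference -0.10 ± 0.33). Gadd45a, a growth arrest and DNA damage gene, read 6.60 and 6.75 under vehicle, and 6.99 and 6.27 under clothianidin, the vehicle values lying between the clothianidin ones. Its difference of -0.04 ± 0.32 turned to 0.32 without the second and to -0.41 on leaving out the first 3-week clothianidin array.

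The other cyclin-dependent kinase inhibitors had overlapping groups at 3 weeks. Cdkn1b, the p27 inhibitor, read 9.27 and 9.70 under vehicle, and 9.64 and 9.45 under clothianidin at 3 weeks, a difference of 0.06 ± 0.30. Cdkn1c, the imprinted p57 inhibitor, read 4.39 and 4.32 against 4.34 and 4.12, a difference of -0.12 ± 0.27. Cdkn2c, the p18 inhibitor, read 3.93 and 4.04 against 3.91 and 4.39, a difference of 0.17 ± 0.28 that became -0.07 with the second clothianidin array left out, 0.41 with the first left out and 0.46 without the arrays with a high Ttr. Of the 6 members other than Cdkn1a, 0 were higher with no overlap between the groups and 1 (Mdm2) was lower. Over all clusters 34.4% showed no overlap, 17.2% as higher and 17.2% as lower, and nothing is read from the count, since the contrast is the one that picked Cdkn1a. In limma 0 of the 22206 clusters (0%) passed an adjusted p of 0.05 at 3 weeks, with 1310 at an unadjusted p under 0.05.

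At 10 weeks the members showed no difference past the threshold, and Cdkn1a and Mdm2 lay the opposite way round from 3 weeks. Cdkn1a read 6.34 and 6.23 under vehicle, and 5.59 and 6.10 under clothianidin. The clothianidin arrays were the lower ones, by a margin of 0.13, and the difference was -0.44 ± 0.29 (SE, adjusted p = 0.997 in limma). The first clothianidin array, which is one of those with a high Ttr, held the lowest value, and without it the difference was -0.18. Mdm2 read 10.34 and 10.39 under vehicle, and 10.78 and 10.62 under clothianidin, a difference of 0.335 ± 0.259 with the clothianidin arrays higher (adjusted p = 0.997 in limma).

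**Figure D2:**
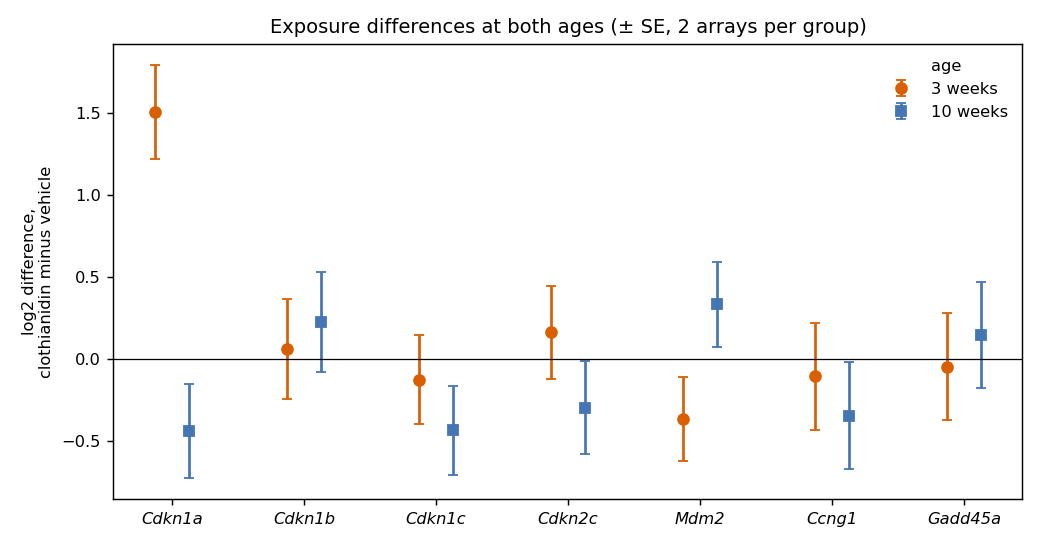
Log2 difference between clothianidin and vehicle arrays (y axis) for the 7 genes (x axis) at 3 weeks (circles) and 10 weeks (squares), with the standard error of the fit as bars and 2 arrays per group. Cdkn1a is the only gene shown whose 3-week difference (1.51) exceeds 1, and at 10 weeks all 7 lie between -0.44 and 0.34.

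Among the remaining members at 10 weeks, Cdkn1c and Cdkn2c were lower without overlap, Cdkn1c by about as much as Cdkn1a. Cdkn1c read 3.19 and 2.87 under vehicle, and 2.43 and 2.76 under clothianidin, the latter lower with a difference of -0.43 ± 0.27 (-0.27 with the first clothianidin array left out). Cdkn2c read 3.91 and 4.00 against 3.85 and 3.47, again without overlap but only 0.06 apart, a difference of -0.29 ± 0.28 (-0.10 with the second clothianidin array left out). Both genes read below the lower quartile of the array's values in 4 of the 8 arrays, which for Cdkn1c are the 10-week arrays, and a signal above background is not established there. The groups overlapped in Cdkn1b (9.33 and 9.35 against 9.90 and 9.23) and in Gadd45a (6.75 and 7.30 against 7.01 and 7.34). They also overlapped in Ccng1 (14.27 and 13.41 against 13.58 and 13.41), whose difference of -0.34 rests on the first vehicle array and was 0.09 without it. The adjusted p was 0.997 in limma for each of the 7. The groups did not overlap in 4 of the 7 genes, 3 lower and 1 higher, where 30.7% of all clusters showed no overlap (15.3% lower and 15.4% higher). Across the 22206 clusters 0 (0%) passed at 10 weeks, and 820 reached an unadjusted p under 0.05.

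The change of the exposure difference from 3 to 10 weeks was -1.95 ± 0.40 for Cdkn1a and 0.70 ± 0.37 for Mdm2. For the other 5 genes it lay between -0.46 and 0.20. These values hold the contrast that picked Cdkn1a and were not tested. In the vehicle arrays Cdkn1a was higher at 10 than at 3 weeks by 0.64 ± 0.29, and in the clothianidin arrays it was lower by 1.31 (difference -1.31 ± 0.29). The first clothianidin array at 10 weeks held the lowest value of all (5.59), next to the 3-week vehicle arrays (5.64 and 5.66).

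Age changed 1 of the 7 members. Cdkn1c, which encodes p57 and is known for keeping hippocampal stem cells quiescent, fell from 3 to 10 weeks. It read 4.39, 4.32, 4.34 and 4.12 at 3 weeks and 3.19, 2.87, 2.43 and 2.76 at 10 weeks. All 10-week arrays lay below all 3-week arrays, as in 7.89% of all clusters (19.7% without overlap in either direction), and the difference over all arrays was -1.48 ± 0.19 (SE, adjusted p = 0.00335 in limma). It was -1.32 between the vehicle arrays and -1.64 between the clothianidin ones. All 4 of the 10-week values lie below their arrays' lower quartile (3.85 to 3.99), where a signal above background is not established, so the size of the fall is uncertain. The call held when any 1 array was left out (adjusted p in limma 0.00833 to 0.0208). It was lost without the 3 arrays with Ttr above 18, a fit of 5 arrays in which 0 clusters passed, where the difference was -1.36 with an adjusted p of 0.135 in limma. Of all clusters 11.2% passed in the age comparison, 4.84% as lower, so 1 of 7 is near the background. In whole tissue fewer cells of a type and less RNA per cell cannot be told apart.

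No other member passed between the ages. Ccng1 was higher in every 10-week array (13.41 to 14.27) than in every 3-week array (12.96 to 13.37), as in 11.8% of all clusters, yet only by 0.04, and the difference of 0.45 ± 0.23 had an adjusted p of 0.217 in limma. Its difference was 0.23 on leaving out the first 10-week vehicle array. Gadd45a gave 0.45 ± 0.23 (adjusted p = 0.217 in limma), and its ages overlapped (6.27 to 6.99 against 6.75 to 7.34). Cdkn1a gave -0.34 ± 0.20 (adjusted p = 0.289 in limma), with opposite signs in the vehicle and clothianidin arrays. Cdkn2c (-0.26), Mdm2 (-0.07) and Cdkn1b (-0.06) had an adjusted p of 0.418, 0.834 and 0.878 in limma.

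Further p53 target genes were read from a list of 24, of which 22 were measured. At 3 weeks 9 were higher and 13 lower after clothianidin, with a median difference of -0.065 beside -0.005 over all clusters (49.5% higher and 50.3% lower), and 0 passed in limma. None of the 22 was higher with no overlap, and 5 were lower, beside 17.2% of all clusters in each direction. The 5, named after their values were seen, were Sesn1 and Zmat3, the apoptosis gene Bbc3, the DNA polymerase gene Polk and the death receptor gene Tnfrsf10b. Pmaip1, which encodes the BH3-only protein Noxa, had the largest difference, -0.84 ± 0.37, with 4.09 and 3.04 under vehicle, and 2.41 and 3.05 under clothianidin. It was -0.31 on leaving out the first 3-week vehicle array. Tnfrsf10b read below the lower quartile in all 8 arrays, Eda2r in 7 and Pmaip1 in 6, so a signal above background is not established for most of their values. The death receptor gene Eda2r stood at 0.73 ± 0.44, and at 0.03 with the first clothianidin array left out, which alone read 4.62 against 2.33 to 3.49 elsewhere. Between the 1 array per group without a high Ttr 12 of the 22 were higher and 9 lower, with a median of 0.085. On leaving out the first 3-week vehicle array 6 were higher and 16 lower, with a median of -0.135. At 10 weeks 11 were higher and 11 lower (all clusters 50.8% and 48.8%), with a median of 0.03, and the largest differences were 0.61 for Rps27l (0.12 with the first clothianidin array left out) and -0.58 for Polk.

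**Figure D3:**
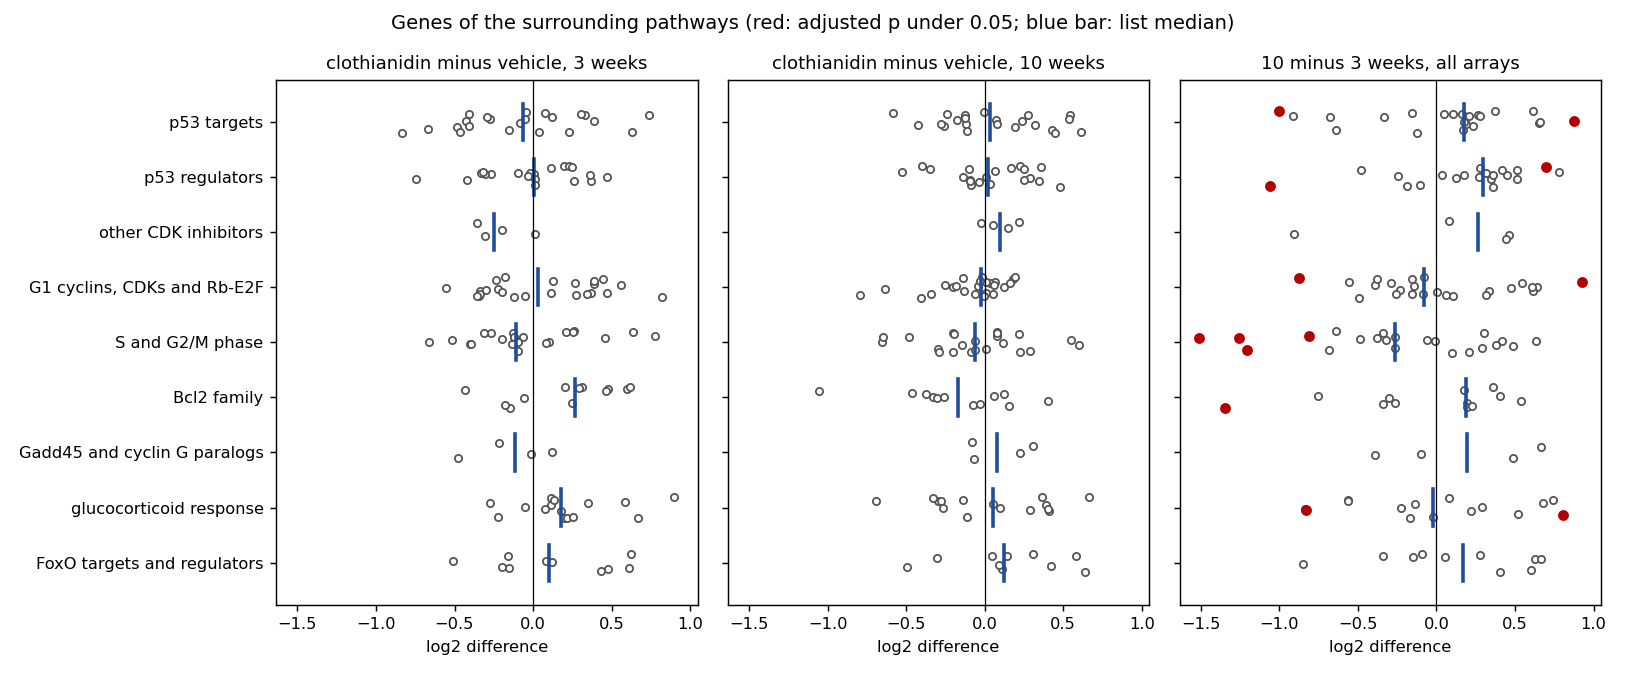
Log2 differences (x axis) of the genes of 9 pathway lists (rows) after clothianidin at 3 weeks, after clothianidin at 10 weeks and between the ages. Each circle is a gene, filled red where the adjusted p in limma is under 0.05, and the blue bar is the list median. No gene is filled in either exposure panel, and the 4 filled genes of the S and G2/M list all lie below 0 in the age panel.

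Regulators of p53, a list of 20 that were all measured, gave 11 higher and 9 lower at 3 weeks, with a median of 0.01 (-0.09 after quantile normalization) and 0 past the threshold. Chek2, the checkpoint kinase that phosphorylates p53, read 5.61 and 5.2 under vehicle, and 4.56 and 4.76 under clothianidin, lower in both (-0.74 ± 0.33, adjusted p = 0.846 in limma). The ribosomal protein gene Rpl5, whose product binds Mdm2, stood at 0.47 and at 0.24 with the first vehicle array left out. The median moved from 0.01 to -0.17 on leaving out the first 3-week vehicle array. Between the 1 array per group without a high Ttr it was 0.21, so its sign depends on the arrays kept. At 10 weeks the list again gave 11 higher and 9 lower with 0 past the threshold, and a median of 0.02 (-0.03 after quantile normalization). The kinase gene Atm stood at -0.52 (-0.13 with the first clothianidin array left out) and the ubiquitin ligase gene Cop1 at 0.48 (0.26 with the second vehicle array left out). Of the 4 remaining cyclin-dependent kinase inhibitor genes, Cdkn2d was near 0 at 3 weeks (0.01). Cdkn2a, Cdkn2b and Cdkn3 were lower, between -0.20 and -0.36, of which Cdkn3 stood at 0.42 with the first vehicle array left out. At 10 weeks 3 of the 4 were higher, with Cdkn2d at 0.22 (0.035 with the first clothianidin array left out) and Cdkn2b at 0.15 (0.035 with the first vehicle array left out). Cdkn2a read below the lower quartile in all 8 arrays and Cdkn3 in 7.

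The kinases and cyclins that p21 acts on, with the Rb and E2F genes, gave 12 higher and 12 lower of 24 at 3 weeks (median 0.03, and -0.02 after quantile normalization). Cdk6, a G1 kinase, read 6.0 and 6.74 under vehicle, and 7.56 and 6.82 under clothianidin, a difference of 0.82 ± 0.37 (adjusted p = 0.846 in limma). It stood at 0.45 with the first vehicle array left out, and at 10 weeks it was lower in both clothianidin arrays (-0.64 ± 0.37, and -0.34 with the second clothianidin array left out). The transcription factor gene Myc stood at 0.56 at 3 weeks, and at 0.27 with the first clothianidin array left out. At 10 weeks 10 were higher and 14 lower, led by the cyclin gene Ccne2 at -0.80, which was -0.18 with the second vehicle array left out. On leaving out the first 3-week vehicle array the count at that age was 9 higher and 15 lower. It was 17 and 7 between the 1 array per group without a high Ttr.

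Genes of S phase and mitosis, which act in dividing cells, were 8 higher and 14 lower of 22 at 3 weeks, with a median of -0.11. Cdc20 and Cdk1 read below the lower quartile in all 8 arrays and Ube2c in 7. The number of dividing cells was not measured. Mki67, the proliferation marker, differed by -0.13 ± 0.34 at 3 weeks and 0.07 ± 0.34 at 10 weeks. The replication gene Mcm3 (0.77) and the mitotic kinesin gene Kif11 (-0.66) had the largest differences at 3 weeks. They came to 0.20 and 0.03 with the first clothianidin array left out. At 10 weeks 10 were higher and 12 lower (median -0.06, and 0.003 after quantile normalization), with the cyclin genes Ccna2 and Ccnb2 at -0.65 each, which came to -0.28 and -0.41 with the second vehicle array left out. No gene of the list passed in limma after exposure at either age.

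Between 3 and 10 weeks the same list held 4 genes that fell and 0 that rose past the threshold, beside 4.84% of all clusters lower and 6.37% higher. The list was mixed, with 8 genes higher and 14 lower, where 56% of all clusters were higher. In every 10-week array 6 were lower and 1 higher, beside 7.89% and 11.8% of all clusters. The 1 higher was the mitotic kinase gene Aurkb (0.63 ± 0.19, adjusted p = 0.0535 in limma), which read below the lower quartile in all 4 of the 3-week arrays. Mki67 fell by 1.51 ± 0.24, from between 4.65 and 5.39 in the 3-week arrays to between 3.13 and 3.74 at 10 weeks (adjusted p = 0.00654 in limma). The replication helicase gene Mcm5 gave -1.21 ± 0.21, and both calls held when any 1 array was left out. Mki67 and Tpx2 read below the lower quartile in all 4 of the 10-week arrays and Mcm5 in 3, so the sizes of these differences are uncertain. Tpx2 (-1.26), a spindle gene, kept its call in 4 and the mitotic kinase gene Aurka (-0.81) in 2 of the 8 fits that left out 1 array. Without the 3 arrays with a high Ttr, a fit in which 0 clusters passed, the differences were -1.13 for Mki67, -1.40 for Tpx2, -1.31 for Mcm5 and -0.97 for Aurka, and 12 of 22 were lower. Cell type markers also differed between the ages. Of 14 marker sums 5 were lower in every 10-week array and 1 was higher, beside 7.89% and 11.8% of all clusters. The oligodendrocyte sum lay between 17.5 and 18.56 at 3 weeks and between 16.78 and 17.13 at 10 weeks, with Mbp, Mog and Mobp each lower in every 10-week array. The sum for neural progenitors and immature neurons lay between 9.10 and 9.19 at 3 weeks and between 8.64 and 8.99 at 10 weeks. Of its markers Dcx was lower in every 10-week array (6.42 to 6.87 against 7.30 to 7.94), while Sox11 and Eomes overlapped. The part of these cell types in the age differences was not tested.

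By age 15 of the 22 p53 targets were higher and 7 lower, where 56% of all clusters were higher and 43.9% lower. The list held Aen, a nuclease gene, as higher (0.88 ± 0.19, adjusted p = 0.0185 in limma) and Pidd1, a death domain gene, as lower (-1.0 ± 0.20, adjusted p = 0.0134 in limma). The regulators held Chek2 as lower (-1.06 ± 0.23, adjusted p = 0.0184 in limma) and Mdm4, the partner of Mdm2, as higher (0.70 ± 0.20, adjusted p = 0.0458 in limma). Cdc25a rose by 0.93 and E2f2 fell by 0.88 among the G1 genes. E2f2 read below the lower quartile in all 4 of the 10-week arrays and Chek2 in 3. Leaving out 1 array ended the call of Pidd1 and Cdc25a in 1 fit of 8, of Aen, Chek2 and E2f2 in 6, and of Mdm4 in all 8. Eda2r (-0.92), Sirt1 (0.78), Cdkn3 (-0.91) and Cdkn2b (0.46) did not pass. Eda2r came to -0.56 on leaving out the first 3-week clothianidin array and Cdkn3 to -0.52 on leaving out the first 3-week vehicle array.

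Paralogs and partners of the members were read in the same way. The Bcl2 family of apoptosis regulators, to which Bax belongs, gave 8 higher and 4 lower of 12 at 3 weeks (median 0.27). The survival gene Bcl2 stood at 0.61 and the killer gene Bak1 at 0.60, but at 0.20 and 0.14 with the first vehicle array left out. At 10 weeks 4 were higher and 8 lower (median -0.17), and Bmf read 4.95 and 5.43 under vehicle against 3.75 and 4.52 under clothianidin (-1.05 ± 0.36, adjusted p = 0.997 in limma, and -0.67 with the first clothianidin array left out). With age Bik fell by 1.35 ± 0.26 (adjusted p = 0.0134 in limma), and the call was lost on leaving out the first 10-week clothianidin array. Bmf, at -0.75, did not pass. Of the paralogs of Gadd45a and Ccng1, Ccng2 was lower in both clothianidin arrays at 3 weeks (-0.47) and stood at 0.31 at 10 weeks (0.14 with the first clothianidin array left out), and Gadd45g stood at -0.21 at 3 weeks, or 0.53 with the first clothianidin array left out. Ccni stood at 0.22 at 10 weeks and at 0.10 with the second clothianidin array left out. With age Gadd45g (0.66) and Gadd45b (0.49) did not pass. Gadd45g stood at 0.29 on leaving out the first 3-week clothianidin array, and without the arrays with a high Ttr the pair stood at -0.0075 and 0.168.

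Genes that respond to glucocorticoids, which also act on Cdkn1a, were 12 higher and 3 lower of 15 at 3 weeks, with a median of 0.17 and 0 past the threshold. The split was 11 and 4 with the first vehicle array left out, with a median of 0.18. Between the 1 array per group without a high Ttr it was 11 and 3, with a median of 0.50. That pair holds the vehicle array with the least spread. In the same pair the median was 0.365 for the Bcl2 family, 0.36 for the FoxO list and 0.35 for the G1 list. It was -0.255 for the other kinase inhibitors, -0.12 for S phase and mitosis and -0.045 for the Gadd45a and Ccng1 paralogs. The share of all clusters higher in that pair is not given here. The zinc finger gene Zbtb16 read 10.76 and 11.72 under vehicle, and 11.94 and 12.33 under clothianidin (0.90 ± 0.33, adjusted p = 0.846 in limma), and stood at 0.41 with the first vehicle array left out. Cebpd read 7.26 and 7.87 against 8.29 and 8.18 (0.67 ± 0.29), and 0.36 without that array. Of the genes named after their values were seen, Fkbp5 stood at 0.20 and Tsc22d3 at 0.07, with overlapping groups. Klf9 stood at 0.35, and at 0.39 at 10 weeks, with no overlap at either age. Of the 15 genes 4 were higher and 0 lower with no overlap at 3 weeks, beside 17.2% of all clusters in each direction. At 10 weeks 8 were higher and 7 lower, with Cebpd again at 0.67 ± 0.29 and Dusp1 at -0.70. With age Sult1a1 (-0.83) and Per1 (0.81) passed narrowly, each keeping its call in 1 of 8 fits without 1 array, and Mt1 (-0.84, and -0.51 with the second 10-week vehicle array left out) did not. The FoxO list gave 6 higher and 4 lower of 10 at 3 weeks (median 0.10, and -0.02 after quantile normalization). Foxo1 read 7.10 and 7.10 under vehicle, and 7.45 and 8.0 under clothianidin (0.62 ± 0.28, adjusted p = 0.846 in limma), and 0.35 with the second clothianidin array left out. Bcl6 stood at 0.61, and at 0.21 with the first clothianidin array left out. At 10 weeks the FoxO list gave 8 higher and 2 lower, with Bcl6 at 0.64 (0.11 with the second vehicle array left out) and Foxo3 at 0.58 (0.28 with the second clothianidin array left out). With age Txnip (-0.85, and -0.42 with the second 3-week clothianidin array left out) and Foxo1 (0.67) did not pass.

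The profiles nearest to Cdkn1a over the 8 arrays were sought by the root mean square difference between log2 values, each gene centred on its own mean, among 17169 named clusters. They were Ugt2b5, a glucuronosyltransferase gene (0.286), the morphogen gene Shh (0.316), the sulfotransferase gene Sult2a5 (0.329), the phosphomannomutase gene Pmm2 (0.337) and Igsf21, a synaptic adhesion gene (0.341). Ugt2b5 read below the lower quartile in all 8 arrays and Sult2a5 in 5, where a signal above background is not established. The median over all those clusters was 0.70, and Cdkn1a lies 0.604 from a flat line. Shh read 5.97 and 6.49 in the 3-week vehicle arrays, 6.92 and 7.24 in the 3-week clothianidin arrays, and 6.14 to 6.93 at 10 weeks. None of the 5 nearest belongs to the lists above. Of the members, Cdkn2c came nearest (0.532, rank 1069). Cdkn1b (0.677, rank 7200) also lay within the median, and Ccng1 (0.742, rank 10891), Mdm2 (0.755, rank 11550), Gadd45a (0.781, rank 12695) and Cdkn1c (0.830, rank 14394) lay farther.

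**Figure D4:**
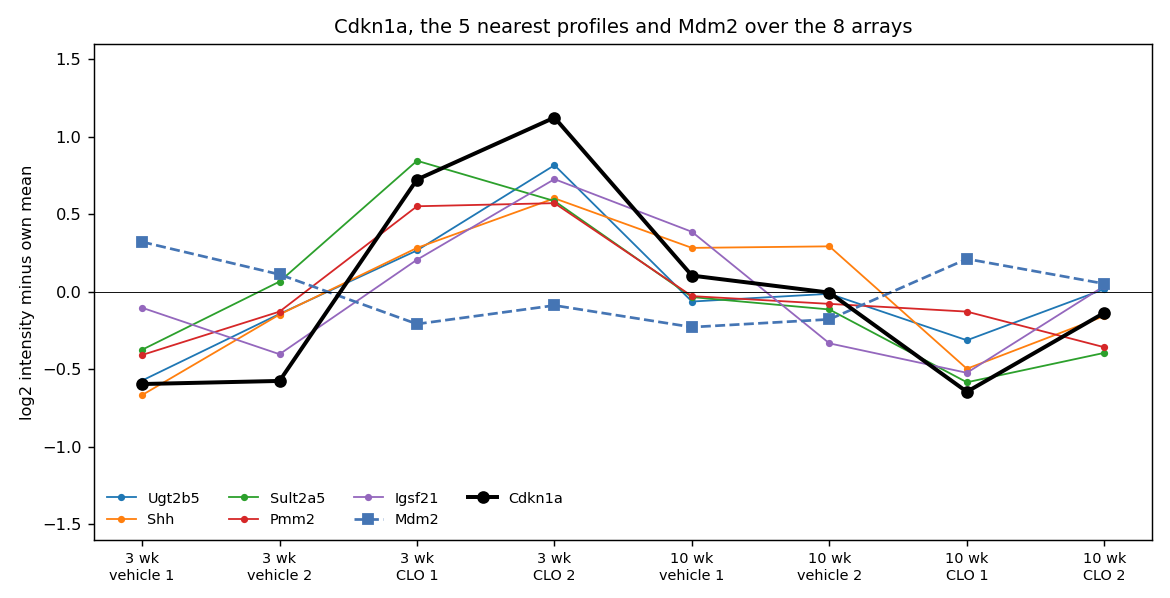
Log2 intensity minus each gene's own mean (y axis) over the 8 arrays (x axis) for Cdkn1a (black), the 5 nearest profiles and Mdm2 (dashed). The nearest profiles share the high 3-week clothianidin arrays by their choice, and Mdm2 lies below its mean in those arrays and in both 10-week vehicle arrays.

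Markers of 14 cell types were set beside Cdkn1a at 3 weeks, each as the log2 of the summed intensity of its measured markers. The sum for oligodendrocyte precursors (2 of 3 markers measured, Olig2 and Cspg4) was 9.83 to 9.96 in vehicle and 10.43 to 10.68 in clothianidin arrays, with Olig2 higher and Cspg4 lower. At 10 weeks it was 9.82 to 9.84 and 9.83 to 10.19. The microglia sum (4 of 4) lay between 12.67 and 12.79 under vehicle and between 12.37 and 12.39 under clothianidin, with 1 marker higher and 1 lower in both arrays. The ependyma sum (2 of 3) lay between 6.81 and 7.31 under vehicle and between 6.39 and 6.65 under clothianidin. Of its markers Ccdc153 was lower in both clothianidin arrays, while Tmem212 overlapped. The sums of these 3 types, of 14, did not overlap between the 3-week groups, where 34.4% of all clusters did not. No shift in cell types is read from this count, and their part in the Cdkn1a value was not tested. Neural progenitors and immature neurons (3 of 4) lay at 9.10 to 9.17 and 9.14 to 9.19. The choroid plexus sum (7 of 7) covered 8.47 to 19.18 in vehicle and 8.91 to 18.84 in clothianidin arrays, and Cdkn1a read 5.64 and 5.66 in those vehicle arrays.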

How the data were processed

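Hippocampal RNA of 8 samples was hybridised to whole-transcript GeneChip arrays. Each deposited value is the log2 intensity of a transcript cluster, for which the authors used RMA (per the submitters' processing notes); the genome build and RMA settings are not given in the sources used here. Array signal carries no read depth, and the 2 arrays per group limit the precision. Symbols came from the platform annotation (19572 of 22206 clusters with 1 symbol, 2634 with none), taking a gene's cluster with the highest mean. A model of group means was fitted to all clusters with limma 3.58.1 in R 4.3.3 (4 residual degrees of freedom), with Benjamini-Hochberg adjustment over all clusters and a threshold of 0.05; it was tested on simulated data. From each of 9 pathway lists the 2 genes with the largest difference in a contrast and up to 4 past the threshold were named, and the 5 profiles nearest to Cdkn1a, leaving out chemosensory receptors, small RNAs and predicted genes. Exceptions are marked where they occur. The members and lists were chosen with earlier results of these data known. Alternatives changed the normalization, prior, covariates, filter, threshold and arrays in the fit.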

Additional observations from a re-analysis of the deposited data

Results flagged for a closer look

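Cdkn1a and Mdm2 each had clothianidin arrays entirely on one side of the vehicle arrays at 3 weeks and entirely on the other side at 10 weeks. Of all clusters 34.4% showed no overlap at 3 weeks and 30.7% at 10 weeks, and the share that changed sides was not counted. The Mdm2 differences were small beside their error, at -0.365 ± 0.259 and 0.335 ± 0.259 (SE). For Cdkn1a the exposure difference at 10 weeks minus that at 3 weeks was -1.95, and for Mdm2 it was 0.70, with the signs of the pair opposed. The difference between the ages was not tested for either gene, since Cdkn1a was picked for its 3-week value. Groups of 2 arrays are too small to look for outlying samples.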

How the results depend on the processing

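Cdkn1a kept its sign at 3 weeks under every alternative run. It was picked for this difference and its groups lay 1.3 apart, so a change of sign was hardly possible. No support is drawn from it. The clusters called by age numbered 2490, and 4389 at an adjusted p of 0.1, 1143 among the brighter clusters (mean not below the median), 4577 by an unadjusted p under 0.05 plus a 1.5-fold difference, 0 without the 3 arrays with Ttr above 18, and 628 to 2550 with 1 array left out. The members called by age went from 1 to 0 among the brighter clusters, where Cdkn1c is not tested, and to 0 without the arrays with a high Ttr. That unadjusted rule gave 1295 clusters at 3 and 815 at 10 weeks, and leaving out 1 array gave 0 to 1 at 10 weeks. Members other than Cdkn1a that were higher without overlap at 3 weeks numbered 0 to 1 with 1 array left out. They numbered 2 without the arrays with a high Ttr, where 1 array per group remains and any positive difference counts. With fewer arrays a lack of overlap is easier to meet, so nothing is read from these counts. The p53 target median at 10 weeks ran from -0.0775 to 0.177 with 1 array left out, and that at 3 weeks was 0.085 without the arrays with a high Ttr. Signs turned for Ccng1 at 10 weeks (0.085 without the first vehicle array, and -0.775 to 0.085 with 1 array left out), for Cdkn1b by age (0.059 with Ttr as a covariate, and 0.045 and a range of -0.23 to 0.105 with 1 array left out) and at 10 weeks (-0.11 to 0.56 with 1 array left out, and -0.11 without the arrays with a high Ttr), and for Gadd45a at 10 weeks (-0.015 without the second clothianidin array, and -0.125 to 0.425 with 1 array left out). At 3 weeks signs turned with 1 array left out for Cdkn1b (-0.155 to 0.275) and Ccng1 (-0.31 to 0.1). They also turned there for Gadd45a (-0.405 to 0.315) and Cdkn2c (-0.075 to 0.405). The 3-week sign of Cdkn1b turned after quantile normalization too. The cause of these turns was not tested. Same-numbered arrays had deviations correlated between -0.267 and 0.138. Each group gives only 1 such deviation per cluster, so these values cannot decide whether the numbers pair the samples. With the replicate block Cdkn1a stood at 1.51 at 3 weeks, Cdkn1c at -1.48 by age (adjusted p = 0.00839 in limma), and 1803 clusters were called by age. Each group holds both array numbers, so the block cannot change the differences, only their errors and p-values.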
